A study of Mus musculus with 6 samples.

Results

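Transcripts of the proteasome subunits were measured in Treg, regulatory T cells that carry CD4 and CD25 and hold immune responses in check. The members were the 43 genes whose single symbol in the platform annotation begins with Psma, Psmb, Psmc, Psmd or Psme followed by a digit, out of 12393 genes with a single symbol. They were covered by 76 probe sets, and each gene was represented by the one with the highest mean over the 6 arrays. The cells came from 3 wild-type samples and 3 samples of MBD2-/- mice, which lack the methylated-DNA binding protein Mbd2, all on the Balb/c background. They were separated magnetically, and the labels give no treatment, age or number of animals per sample. The submitters called the 3 knockout samples independent. RNA was measured on single-colour arrays, and the deposited unit is the log2 signal of a probe set, so a difference of 1 is a factor of 2. Values of a gene are listed below in the order of replicates 1, 2 and 3 of a group.

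The proteasome degrades proteins tagged with ubiquitin. Its barrel, the 20S core, is built of rings of alpha subunits (Psma genes) that gate the entrance and rings of beta subunits (Psmb genes) that hold the proteolytic sites. The 19S cap unfolds substrates with a ring of ATPases (Psmc genes) and recognises and deubiquitinates them with non-ATPase subunits (Psmd genes). Lymphocytes express much immunoproteasome, in which Psmb8, Psmb9 and Psmb10 take the places of the catalytic subunits Psmb5, Psmb6 and Psmb7. Together with the PA28 activator, made of Psme1 and Psme2, it favours peptides suited to MHC class I, and interferon-gamma induces all 5 genes.

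By role, the members were 8 alpha subunits, 7 constitutive beta subunits, 4 immunoproteasome genes, 6 ATPases, 11 non-ATPase subunits, 3 chaperones of cap assembly (Psmd5, Psmd9 and Psmd10) and the activators Psme3 and Psme4. Psmc3ip, a recombination factor, and Psme3ip1, which binds Psme3, carry a matching symbol without being proteasome subunits. Psme2 was not a member, since its probe set is annotated to Psme2 and Psme2b together. Of the 43 genes, 42 passed the filter that left out the dimmest 40% of probe sets. The other one was Psma8, the alpha subunit of germ cells, with values between 4.49 and 4.84 on the 6 arrays.

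One array, wild-type replicate 3, was unlike the rest, with a correlation of 0.749 to 0.767 across all probe sets against 0.956 to 0.997 among the other 5. Over the 42 tested members these ranges were 0.816 to 0.856 and 0.985 to 0.997, as a description across genes. The counts and medians over all members are therefore given with 6 arrays and with 5, without this array. Differences of single genes are those with 5 arrays unless 6 arrays are named. The labelled knockout was checked with Mbd2, whose brighter probe set read 8.80, 8.66 and 6.93 in wild type and 5.93, 5.71 and 6.14 in knockout. Its log2 difference was -2.21 with 6 arrays (limma adjusted p = 0.548) and -2.80 with 5 (limma adjusted p = 0.00197). The deleted part of the gene was not given in the sources used here.

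No proteasome gene passed the threshold of an adjusted p of 0.05 in either fit. With 5 arrays, the 42 members had a median log2 difference, knockout minus wild type, of 0.03, and ranged from -0.20 for Psmd10 to 0.33 for Psmb3. Of the members, 24 were higher and 18 lower in knockout, whereas 39.6% of the 8104 genes tested were higher, 60.4% were lower and the median over all genes was -0.06. The share of all genes called was 0.79% in the higher and 0.753% in the lower direction, against 0 members in both (smallest limma adjusted p = 0.184). At an unadjusted p under 0.05 there were 2 members higher and 0 lower, against 7.77% and 15.2% of all genes, 23% in either direction. The 95% interval of the difference lay within a factor of 1.5 either way for 38 of the 42 members, and for 63.3% of all genes. The exceptions were Psmb3, Psmc4, Psmd1 and Psmc3ip, whose upper bounds reached 0.61, 0.61, 0.59 and 0.63. The knockout arrays lay wholly above the wild-type arrays for 7 members and wholly below for 5, against 16.8% and 33.4% of all genes.

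With 6 arrays, 41 of the 42 members were higher in knockout, with a median log2 difference of 0.55, and 0 passed the threshold. The smallest limma adjusted p was 0.829, and 0 members had an unadjusted p under 0.05 in either direction, against 3.91% of all genes higher and 0.574% lower, 4.48% together. Over 8190 genes, 64.3% were higher, the median was 0.16, and 0.122% were called higher and 0% lower. The standard errors of the members ran from 0.21 to 0.77, against 0.09 to 0.19 with 5 arrays. In the 6-array fit the interval lay within a factor of 1.5 for only 2 members, Psmd3 and Psmd9, and for 5.34% of all genes. All knockout arrays lay above all wild-type arrays for 7 members, the same ones as with 5 arrays, and below for 0, against 10.8% and 5.43% of all genes. The higher values with 6 arrays moved with a single library: wild-type replicate 3 was the lowest of the 6 arrays for 39 of the 42 members, all but Psmc3ip, Psmd3 and Psmd9, and for 64.7% of all genes.

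**Figure D1:**
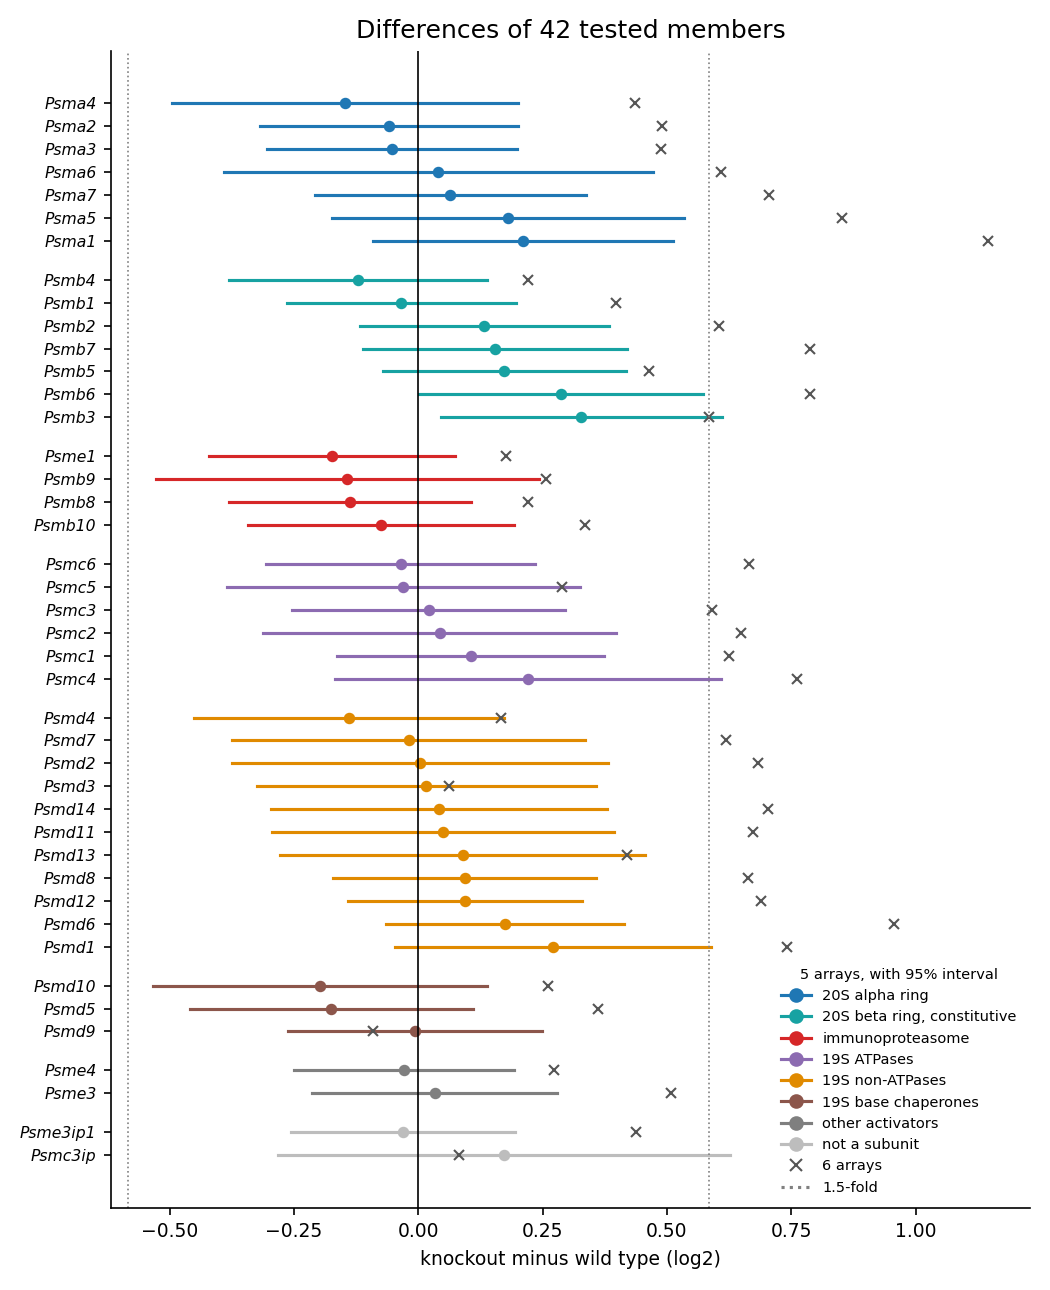
Log2 difference, knockout minus wild type, of the 42 tested proteasome genes (horizontal axis), grouped and coloured by role. Dots with lines are the 5-array differences with their 95% limma intervals, crosses are the 6-array differences, and the dotted lines mark a factor of 1.5. The dots run from -0.20 to 0.33, while 41 of the 42 crosses lie above 0.

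The constitutive catalytic subunits were all on the positive side in both fits, and none passed the threshold. Psmb5, which carries the chymotrypsin-like activity, read 8.96, 8.92 and 8.07 in wild type and 9.21, 9.02 and 9.10 in knockout. Psmb6, the caspase-like subunit, read 9.06, 8.92 and 7.49 in wild type and 9.34, 9.13 and 9.36 in knockout. For both genes every knockout array lay above every wild-type array, as for 10.8% of all genes with 6 arrays and 16.8% with 5. The difference of the group means with 5 arrays was 0.17 and 0.29 on the log2 scale (limma adjusted p = 0.358 and 0.227). Psmb7, the trypsin-like subunit, read 9.25, 9.17 and 7.31 in wild type and 9.38, 9.23 and 9.47 in knockout. Its groups overlapped through knockout replicate 2, and its 5-array difference was 0.15 with an SE of 0.11 (limma adjusted p = 0.438).

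The immunoproteasome genes were on the negative side of 0 once wild-type replicate 3 was left out, as were 60.4% of all genes, and they too did not pass. Psmb8, the counterpart of Psmb5, read 11.07, 11.03 and 9.97 in wild type and 10.91, 11.00 and 10.82 in knockout. Psmb9, the counterpart of Psmb6, read 10.49, 10.55 and 9.32 in wild type and 10.35, 10.64 and 10.15 in knockout. Psmb10, the counterpart of Psmb7, read 9.60, 9.62 and 8.38 in wild type and 9.53, 9.66 and 9.41 in knockout. Knockout replicate 2 was the highest of the knockout arrays for these 3 genes, and its Psmb9 and Psmb10 values exceeded those of every wild-type array. Psme1, the alpha subunit of PA28, read 10.60, 10.56 and 9.53 in wild type and 10.44, 10.30 and 10.48 in knockout, where replicate 2 was the lowest. Without wild-type replicate 3, the knockout arrays of Psmb8 and Psme1 lay wholly below the wild-type ones, Psmb8 by a narrow gap. Those of Psmb9 and Psmb10 overlapped them. The knockout arrays lay wholly below for 33.4% of all genes in that fit.

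With 5 arrays the differences were -0.14 for Psmb8, -0.14 for Psmb9, -0.08 for Psmb10 and -0.17 for Psme1, with intervals that all held 0 and reached down to -0.53. Limma adjusted p lay between 0.359 for Psme1 and 0.709 for Psmb10. With 6 arrays all 4 were positive, from 0.18 to 0.33, and after a further quantile normalization of the 6 arrays all 4 were negative again, from -0.06 to -0.19. The median of the 4 immunoproteasome genes was below the median of the other members in both fits, by -0.18 with 5 arrays (-0.14 against 0.04) and by -0.36 with 6 (0.24 against 0.60). This ordering is a description of 4 genes and was not tested. It was smallest, at -0.04, with 5 arrays when knockout replicate 3 was left out. The fits share 5 arrays, so they are not independent. Wild-type replicate 3 enters only the 6-array fit. Its median distance from replicates 1 and 2 was -1.14 for these 4 genes and -1.61 for the other members.

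The balance of each immunoproteasome subunit to its constitutive counterpart was set to the mean of wild-type replicates 1 and 2 to compare arrays. Psmb8 relative to Psmb5 was at -0.41, -0.14 and -0.39 on the log2 scale in knockout replicates 1, 2 and 3, and at -0.21 in wild-type replicate 3. Psmb9 relative to Psmb6 was at -0.53, -0.02 and -0.74 in knockout, and at 0.30 in wild-type replicate 3. Psmb10 relative to Psmb7 was at -0.26, 0.02 and -0.46, and at 0.67 in wild-type replicate 3. Knockout replicates 1 and 3 thus gave the low balances in all 3 pairs, and knockout replicate 2 lay near wild-type replicates 1 and 2 in the last 2 pairs. The groups overlapped in every pair with 6 arrays, and without wild-type replicate 3 they were apart only for Psmb8 relative to Psmb5.

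**Figure D2:**
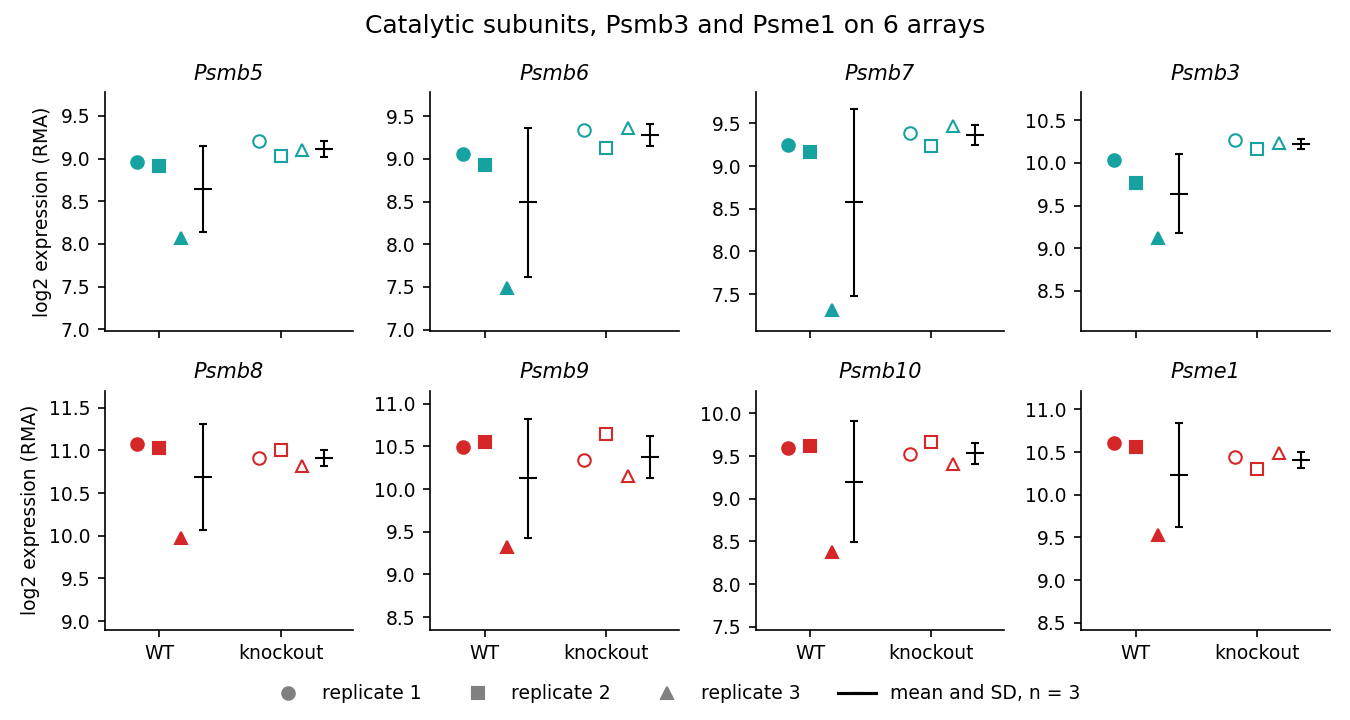
Log2 expression of the constitutive catalytic subunits (upper row, with Psmb3) and of their immunoproteasome counterparts (lower row, with Psme1) in wild type (filled) and knockout (open). Symbols mark replicates 1, 2 and 3, and the bar is the mean with SD (n = 3); each panel spans the same range of log2 units. Wild-type replicate 3 is the lowest point in all 8 panels, and knockout replicate 2 is the highest knockout point for Psmb8, Psmb9 and Psmb10.

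Promoter sequence of these genes is shown because the constitutive and the inducible subunits are known to be driven by different factors, the former through antioxidant response elements bound by Nfe2l1 and the latter through interferon-stimulated response elements and gamma-activated sites. RefSeq windows on GRCm38.p6, from 250 bases before to 50 after the start site, were found for 36 of the 43 members and searched on both strands. The antioxidant response element core TGACNNNGC occurred in 6 of the 36 (16.7%; 14.0% of all 27025 genes with a window), namely Psmb5, Psmb6, Psmc6, Psmd9, Psmd12 and Psme4. The interferon-stimulated response element core, GAAA repeated with any 2 bases between, occurred in Psme1, Psmb3, Psmd4 and Psmd9 (11.1%; 3.99% of all genes). The gamma-activated site TTCNNNGAA, which reads the same on both strands, occurred in Psmb8 and Psmd2 (5.56%; 9.55% of all genes). No motif overlapped another in the stretches below, each 100 bases long and read 5′ to 3′ on the gene's strand, with the match in capitals. They are Psmb5 at chr14:54617996-54618095 (minus strand), Psmb6 at chr11:70525257-70525356 (plus strand), Psmb8 at chr17:34198045-34198144 (plus strand) and Psmb3, the member with the largest 5-array difference, at chr11:97703234-97703333 (plus strand).
Psmb5: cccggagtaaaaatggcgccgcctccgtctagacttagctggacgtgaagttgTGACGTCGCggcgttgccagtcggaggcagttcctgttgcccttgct
Psmb6: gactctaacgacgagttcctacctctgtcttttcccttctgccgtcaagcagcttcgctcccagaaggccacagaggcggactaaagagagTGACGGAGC
Psmb8: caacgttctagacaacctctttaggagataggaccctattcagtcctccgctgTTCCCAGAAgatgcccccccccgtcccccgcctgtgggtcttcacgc
Psmb3: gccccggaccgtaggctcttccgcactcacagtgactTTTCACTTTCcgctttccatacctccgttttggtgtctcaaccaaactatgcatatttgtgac
In Psmb3 the match lies on the opposite strand. In Psme1 it lies after the start site and is not shown.

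Among the non-catalytic beta subunits, Psmb3 had the largest 5-array difference and the smallest p of all members. It read 10.03, 9.76 and 9.13 in wild type and 10.27, 10.16 and 10.24 in knockout. All knockout arrays lay above all wild-type arrays, at 0.33 with an SE of 0.12 (unadjusted p = 0.0295, limma adjusted p = 0.184). The other probe set of Psmb3 was at 0.09, with overlapping groups. Psmb2 also had non-overlapping groups, at 0.13, while Psmb1 was at -0.03 and Psmb4, with the knockout arrays below wild-type replicates 1 and 2, at -0.12. With 6 arrays all 7 constitutive beta subunits were positive, from 0.22 to 0.79.

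The alpha ring had a median of 0.04 with 5 arrays, 4 of its 7 tested genes being higher. Psma1 read 9.60, 9.55 and 6.77 in wild type and 9.84, 9.60 and 9.92 in knockout. Its wild-type replicate 3 value was 2.80 below the mean of replicates 1 and 2, the widest gap of all members, and its 6-array difference of 1.15 was the largest (SE 0.77, limma adjusted p = 0.829). Psma5 read 8.89, 8.88 and 6.86 in wild type and 9.22, 8.81 and 9.15 in knockout, with a 5-array difference of 0.18, and knockout replicate 2 lay below all arrays but wild-type replicate 3. Psma4, at -0.15, had the lowest alpha value and likewise had its knockout minimum in replicate 2, at 9.83. Psma2, Psma3, Psma6 and Psma7 lay between -0.06 and 0.06.

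In the 19S cap the ATPases had a median of 0.03 and the 11 non-ATPase subunits one of 0.05 with 5 arrays. Psmc4 read 7.86, 7.78 and 6.196 in wild type and 8.18, 7.76 and 8.19 in knockout, at 0.22 the highest ATPase. Psmd1, the large scaffold subunit of the base, read 8.27, 8.29 and 6.87 in wild type and 8.66, 8.34 and 8.66 in knockout, with all knockout arrays above all wild-type arrays (0.27, SE 0.13, limma adjusted p = 0.285). Psmd6, a subunit of the lid, had the same non-overlapping pattern at 0.17 with 5 arrays and 0.96 with 6. Psmd14, the deubiquitinase of the lid, was at 0.04, and Psmd2, the other large scaffold, at 0.00. Psmd4, a ubiquitin receptor, was at -0.14. Psmd3 was the subunit least moved by wild-type replicate 3, which read 8.41 against 8.58 and 8.51, and was at 0.02 with 5 arrays and 0.06 with 6.

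The 3 chaperones that assemble the base were all below 0 with 5 arrays, with a median of -0.18. Psmd10 read 6.89, 6.999 and 5.57 in wild type and 6.86, 6.52 and 6.86 in knockout. Its 5-array difference was the lowest of all members at -0.20 (SE 0.14, limma adjusted p = 0.435), and it was at 0.26 with 6 arrays. Psmd5 was at -0.18, with its knockout arrays below wild-type replicates 1 and 2, and at 0.36 with 6 arrays. Psmd9 was at -0.01 and was the only member with a negative 6-array difference, -0.09. The nuclear activators Psme3 and Psme4 were at 0.03 and -0.03, and Psme3ip1 was at -0.03. Psmc3ip read 6.26, 6.16 and 6.48 in wild type and 6.57, 6.03 and 6.55 in knockout, with the groups overlapping.

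Of the 17 members with several tested probe sets in the 6-array fit, 4 had a probe set of opposite sign: Psmb1, Psmd4, Psmd7 and Psmd11. Each of those probe sets was higher in wild-type replicate 3 than on any other array. For Psmd11 the brightest probe set read 7.26 there against 9.05 and 9.22 in the other wild-type arrays, while another read 9.53 against 8.18 and 8.28. With 5 arrays 3 of 16 such members disagreed in sign, Psma5, Psmb4 and Psmd11, all by values within 0.18 of 0.

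The distance of wild-type replicate 3 from replicates 1 and 2 varied with the signal. Its median was -1.53 over the 42 members and -0.78 over all 8190 genes. The genes at log2 5 to 6 in replicates 1 and 2 had a median of 0.64. Those at 9 to 10 had one of -1.58, and those at 11 to 12 one of -0.94. The correlation of distance and signal was -0.61 over all genes and -0.31 over the members. The distance is taken from the same mean that sets the bands, which by itself can tilt it downward with signal. Genes below the filter cutoff of 5.18 in replicates 1 and 2 entered only where other arrays raised their 6-array mean. In the same bands, the 13 members at 9 to 10 had a median of -1.71 and the 7 at 10 to 11 one of -1.30, against -1.28 for all genes of that band. With the genes cut into 4 equal groups by signal in replicates 1 and 2, 31 members lay in the brightest group, where the median distance of all genes was -1.47. By role, the medians were -1.79 for the non-ATPase subunits, -1.75 for the alpha ring, -1.67 for the ATPases, -1.30 for the constitutive beta ring and -1.14 for the immunoproteasome genes, whose 4 values lay close together between -1.23 and -1.05. The roles also differed in signal, and a part of the role apart from signal was not tested. The immunoproteasome genes had means of 9.61 to 11.05 in replicates 1 and 2. All genes in the bands 9 to 10, 10 to 11 and 11 to 12 had medians of -1.58, -1.28 and -0.94. Signals of different probe sets are not levels per transcript length.

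**Figure D3:**
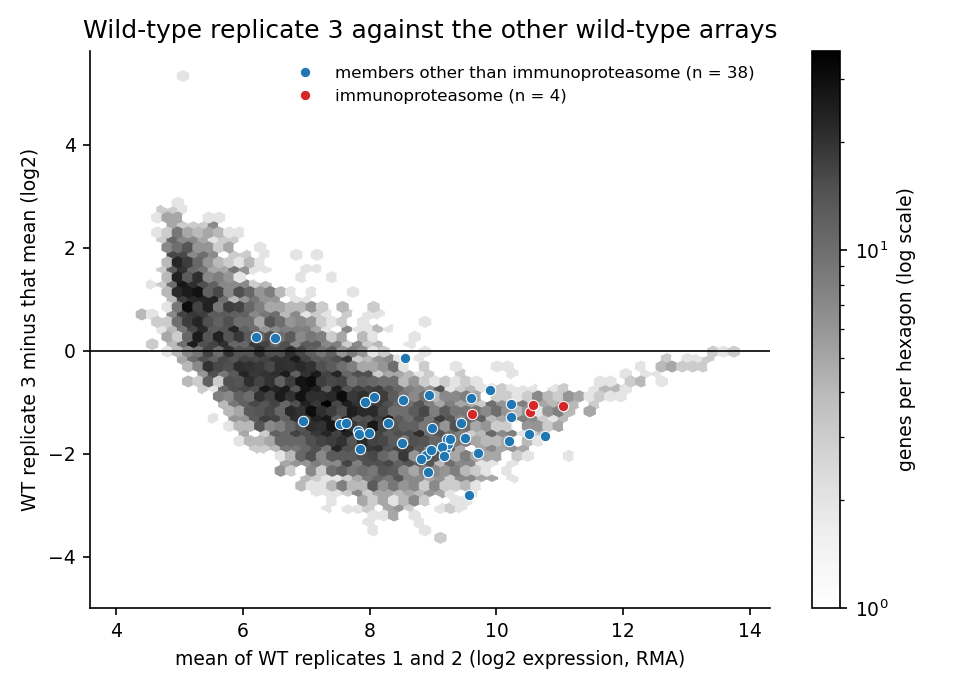
Distance of wild-type replicate 3 from the mean of wild-type replicates 1 and 2 (vertical axis, log2) against that mean (horizontal axis) for the 8190 tested genes, shaded by number per hexagon. Blue points are 38 members and red points the 4 immunoproteasome genes. The cloud turns from positive values at low signal to negative values at high signal, and the members lie within it, with a median of -1.53.

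Knockout replicate 2 differed from the other knockout arrays in its order for most members. It was the lowest of the 3 knockout arrays for 37 of the 42 members, and for 55.3% of all 8190 genes. Among the 38 members outside the immunoproteasome it was the lowest for 36 and the highest for 0, and among the 4 immunoproteasome genes the lowest for 1, Psme1, and the highest for 3. Relative to wild-type replicates 1 and 2, the medians of the 38 members were 0.14, -0.13 and 0.11 in knockout replicates 1, 2 and 3, against -0.04, -0.13 and -0.03 for all 8190 genes. In the brightest of the 4 groups by signal, which held 31 of the 42 members, the medians of all genes were -0.07, -0.22 and -0.06. Those of the 4 immunoproteasome genes were -0.14, 0.00 and -0.21. In knockout replicates 1 and 3, 31 and 32 of the 38 lay above the mean of wild-type replicates 1 and 2, as did 3562 and 3689 of the 8190 genes. All 4 immunoproteasome genes lay below it in both arrays, as did 4628 and 4501 of all genes.

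**Figure D4:**
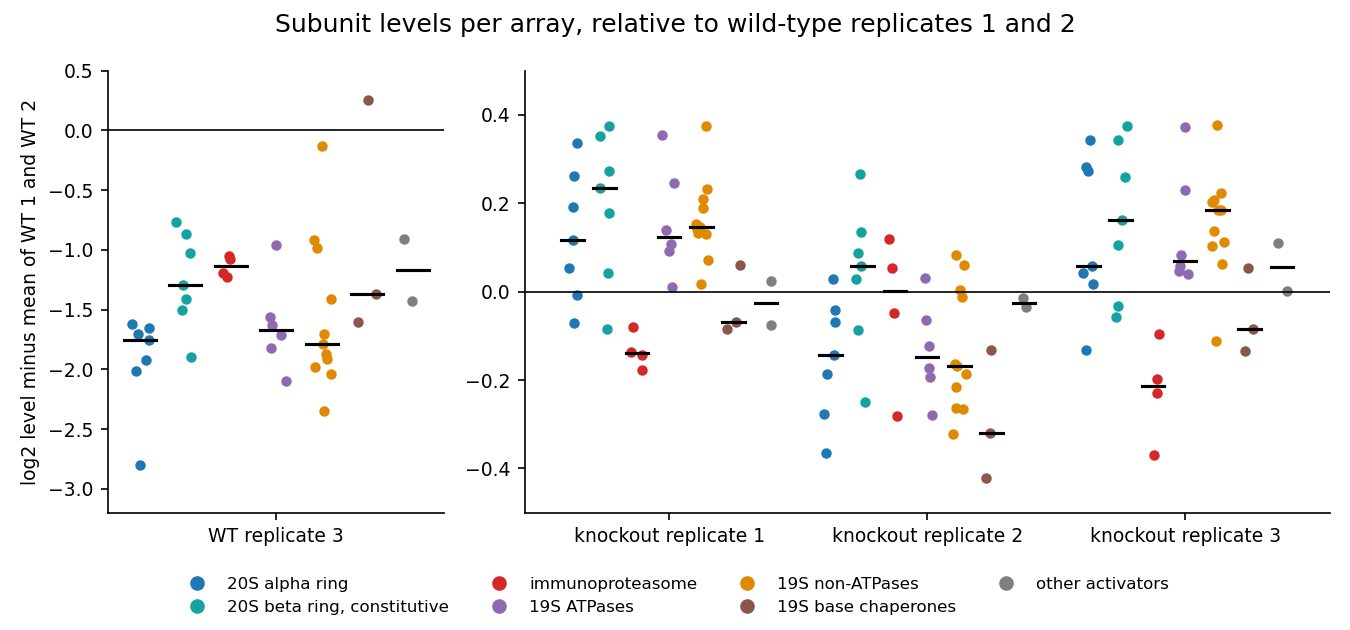
Log2 level of each tested subunit minus the mean of wild-type replicates 1 and 2 (vertical axis; the left and right panels have different ranges), by role, in wild-type replicate 3 (left) and in the 3 knockout arrays (right). Points are genes and black bars are medians. The immunoproteasome medians are -0.14, 0.00 and -0.21 in knockout replicates 1, 2 and 3.

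With wild-type replicate 3 and knockout replicate 2 both left out, 6 of the 42 members passed the threshold, all higher in knockout, and 0 lower. They were Psma1, Psma5, Psmb6, Psmc4, Psmd1 and Psmc3ip, with log2 differences from 0.30 to 0.38 and limma adjusted p from 0.0170 to 0.0395. Psmd1 had the largest, a factor of 1.30 from 8.28 to 8.66 (SE 0.07). In this 4-array fit, of 2 arrays a group, 9.11% of 8093 genes were called higher and 11.4% lower, against 14.3% of members higher. Knockout replicate 2 was the lowest knockout array for 37 of the 42 members, so leaving it out raises the knockout mean of those members. The direction of these calls is thus not independent of the choice of array. In the same fit the 4 immunoproteasome genes were between -0.12 and -0.27, and 0 of them passed. Array quality weights, which give unlike arrays less say, called 5 members with 6 arrays and 9 with 5, all higher, against 7.79% of genes higher and 9.51% lower with 6 arrays and 12.5% and 17.9% with 5.

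Of 15 measured assembly factors and regulators, 0 passed in either fit, and with 5 arrays 7 were higher and 8 lower around a median of 0.00. Pomp, the chaperone that matures the 20S core, was at 0.16, with the knockout arrays above the wild-type ones, as for 16.8% of all genes. The 20S assembly chaperones Psmg1 to Psmg4 lay between -0.13 and 0.10. Nfe2l1, the transcription factor that induces proteasome genes, was at -0.09. Ngly1, the deglycosylase that activates it, was at -0.33 (limma adjusted p = 0.133), and Psmf1, a proteasome inhibitor, was at -0.25 (limma adjusted p = 0.246). Txnl1, a redox protein of the cap, was at 0.23 and Uchl5, a cap deubiquitinase, at 0.19. Of 10 measured ubiquitin and shuttle factors, 0 passed, 4 were higher and 6 lower, and Ufd1, a cofactor of the unfoldase Vcp, was the lowest at -0.41 (limma adjusted p = 0.156). Ubqln1 and Ubqln2, which carry ubiquitinated proteins to the cap, were at 0.23 and -0.21. With 6 arrays 13 of the 15 and all 10 were higher, with medians of 0.53 and 0.36.

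The genes downstream of the proteasome in MHC class I presentation held no call in either fit. With 6 arrays 7 of 10 were higher and 3 lower, with a median of 0.23. With 5 arrays 4 were higher and 6 lower. Tap1 and Tap2, the peptide transporter genes that neighbour Psmb8 and Psmb9 in the MHC, read 9.15 and 9.45 in wild-type replicate 1, 9.14 and 9.42 in replicate 2 and 7.38 and 8.42 in replicate 3. In the knockout arrays Tap1 read 8.63, 9.03 and 8.59 and Tap2 read 9.10, 9.01 and 8.95. Both lay below wild-type replicates 1 and 2 in all knockout arrays, as did 33.4% of all genes with 5 arrays. The differences of Tap1 and Tap2 were -0.39 (limma adjusted p = 0.217) and -0.41 (limma adjusted p = 0.0939). With 6 arrays they were at 0.19 and -0.08. The endoplasmic reticulum chaperones Canx and Calr were at 0.29 and 0.38, and H2-K1 and H2-D1, the class I heavy chains, at -0.11 and -0.20. Of 9 measured regulators of the interferon-gamma response 0 passed in either fit. With 6 arrays 6 of them were higher, with a median of 0.10. With 5 arrays 8 were lower, with a median of -0.35, against 60.4% of all genes lower. Irf1, an inducer of the immunoproteasome genes, was at -0.35 (limma adjusted p = 0.319) and had, like Psmb8 and Psmb9, its highest knockout value in replicate 2. Irf9 was at -0.40 and Socs1 at -0.38, and Irf8, which is also a gene of B cells and myeloid cells, was the exception at 1.15 (limma adjusted p = 0.0915).

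Markers of other cell types differed between the same arrays. The 11 measured neutrophil and granulocyte markers had a mean log2 level of 5.56 to 6.38 in wild type and 9.47 to 9.81 in knockout. All 11 had positive differences in both fits, of which 5 passed with 6 arrays and 7 with 5. Of all genes, 0.122% were called higher with 6 arrays and 0.79% with 5. The 11 monocyte, macrophage and dendritic cell markers had 5.10 to 5.85 in wild type and 7.17, 8.49 and 7.04 in knockout. The 9 B cell markers had 6.17 to 7.21 and 8.04 to 8.74, and the 6 plasma cell markers 6.97 to 8.27 in wild type and 8.61, 10.16 and 8.65 in knockout. The 9 CD8 T cell and NK cell markers had 6.26 to 6.95 and 7.29 to 8.34. The 6 T cell markers, among them Cd4, had 10.40, 10.37 and 9.23 in wild type and 10.03, 9.31 and 9.99 in knockout. The 7 Treg markers had 8.58, 8.63 and 7.04 in wild type and 7.56, 6.93 and 7.79 in knockout, all with negative differences with 5 arrays. In that fit 2 of them were called lower, against 0.753% of all genes, and with 6 arrays 0 were. The 14 proliferation markers had 7.54, 7.72 and 6.43 in wild type and 8.19, 7.77 and 8.10 in knockout. The 13 tested ones were all higher in both fits, and 0 passed. Knockout replicate 2 thus had the lowest knockout T cell, Treg and proliferation means and the highest neutrophil, monocyte, B cell and plasma cell means. The part of these cells in the proteasome values was not tested, and in bulk samples fewer cells of a type and less RNA per cell cannot be told apart.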

How the data were processed

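The authors' deposited table holds log2 signals of probe sets on 6 arrays, made with RMA per the submitters' processing notes, which corrects background, normalizes by quantiles and summarises probes. Which arrays were normalized as a set was not given in the sources used here. The 6 arrays did not share a common distribution. Wild-type replicate 3 had an SD of 1.36 over all probe sets and quartiles of 5.00 and 6.64. The other arrays had SDs of 1.78 to 1.83, lower quartiles of 4.56 to 4.62 and upper quartiles of 7.20 to 7.31. No detection calls were used. Of 22690 probe sets, 64 controls were left out. Symbols came from the platform annotation, updated by gene ID through RefSeq (GRCm38.p6); 20380 probe sets had 1 symbol, 691 several and 1555 none.

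In each fit the dimmest 40% of probe sets, by their mean on its arrays, were left out. The other 13576 entered limma 3.58.1 (R 4.3.3; lmFit and eBayes, genotype alone as a term), with p-values adjusted by Benjamini-Hochberg over all of them and a threshold of 0.05. The number of arrays limits the precision, and p-values measure the spread between these samples. Named were Mbd2, the catalytic subunits, Psme1, the 4 highest, the 4 lowest and the 3 members with the smallest p in each fit, ranked and not called, those with probe sets of opposite sign, those that are no subunit, and up to 3 genes of each other list by smallest p; others, such as Psmd14 or Pomp, were chosen after their values were seen. Members and lists were chosen with earlier results of these data known. Alternatives are given at the end. The code of the fit was run on simulated data. No result of that run is given, and no conclusion about fits that hold wild-type replicate 3 is drawn from that run. Figures were drawn with matplotlib 3.10.9.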

Additional observations from a re-analysis of the deposited data

How the results depend on the processing

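Over the alternatives run, no member passed the threshold except in 2 settings for each fit. With array quality weights 5 members were called with 6 arrays and 9 with 5, all of them higher in knockout (background 7.79% and 12.5% of genes called higher); with 6 arrays the lowest weights were 0.0288 for wild-type replicate 3, 0.451 for wild-type replicate 1 and 0.585 for knockout replicate 2, and their estimation stopped before it converged. With wild-type replicate 3 and knockout replicate 2 both left out the count was 6 with 6 arrays, and it was 6 with 5 arrays, which is the same fit. Leaving out each array in turn gave 0 members with 6 arrays and 0 to 6 with 5; the median difference of the members then ran from 0.03 to 0.78 and from -0.03 to 0.13, and the immunoproteasome median minus that of the other members from -0.45 to -0.18 and from -0.30 to -0.04. The 6-array signs of the immunoproteasome genes reversed in 4 settings, for Psmb8, Psmb9, Psmb10 and Psme1 in turn: -0.14, -0.24, -0.11 and -0.11 with array quality weights, -0.13, -0.13, -0.057 and -0.19 after quantile normalization again, -0.14, -0.14, -0.075 and -0.17 without wild-type replicate 3, and -0.18, -0.27, -0.14 and -0.12 without both arrays. Leaving out other single arrays gave at most 0.41, 0.47, 0.54 and 0.36 for these genes. The cause was not tested. The replicate block gave 0 members in both fits, with medians of 0.55 and -0.03. With 5 arrays replicate 3 has a knockout array alone, so the block gave the same differences as leaving out knockout replicate 3. Deviations from the group means had r of 0.15, -0.09 and -0.14 across probe sets between same-numbered arrays. Between other-numbered arrays r ran from -0.21 to 0.21. These values cannot decide whether the numbers pair samples, since the deviations within a group depend on each other. Quantile normalization again moved the median of all genes from 0.16 to 0.04 with 6 arrays, and that of the members from 0.55 to 0.25. The array signals had no detection calls, so a dim member such as Psma8 has no measured floor.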
